A study of Eublepharis macularius with 18 samples.

Results

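The genes described here code for 8 secreted proteins of the extracellular matrix, and they are 8 of the 12376 rows of a gene table from leopard gecko ventricle. They were taken by symbol from that table, each symbol matched 1 row, and all 18 libraries were used. Aspn, Lum and Prelp code for small leucine-rich proteoglycans, Fbln1 for a fibulin, Fbn1 for a fibrillin, Mfap4 for a microfibril-associated protein, and Dpt and Ccdc80 for matrix proteins that belong to neither family. All 8 passed the filter on low genes (mean over the 18 libraries of 10 normalized counts or more), as did 9887 rows in all. The 8 symbols were listed with earlier results of these libraries known, so their levels and changes are given as a description, and their adjusted p-values place them within a fit of all 9887 genes without being independent evidence.

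Hearts of Eublepharis macularius, a lizard, were injured by touching the ventricle with a metal probe cooled in liquid nitrogen (cryoinjury). RNA came from a portion of ventricle next to the injury at 3, 14, 30 or 100 days post-injury (dpi), and from a comparable portion in control and sham animals. Each of these 6 groups had 3 animals, and each animal gave 1 library of polyadenylated RNA. The series text describes reaching the ventricle by surgery and tearing the pericardium before the probe was applied. The labels say of the other animals only that they were controls or shams, with no day of sampling, and strain, age and sex are not given in the sources used here. The comparisons ask how ventricle changed after injury and whether it differed from uninjured ventricle at later times.

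Small leucine-rich proteoglycans have a short core protein of leucine-rich repeats that binds collagen fibrils and influences how thick and how regular those fibrils become. Fibrillins polymerize into microfibrils, thin extracellular filaments that carry elastin and store growth factors of the TGF-beta family, and fibulins and microfibril-associated proteins bind to these filaments. In injured mammalian hearts such proteins are made largely by fibroblasts and form part of the scar matrix.

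Library depth ran from 12646411 to 34898541 reads assigned to genes, as recovered from the spacing of the deposited values. A count of 3 reads, the limit that a count of 0 allows, was worth 1.45 to 3.95 normalized counts, and these limits cover counting error only. The lowest library of any of the 8 genes held 8 reads (Dpt), and the lowest for Mfap4 held 487. Cardiomyocyte markers summed to between 711800 and 1133000 normalized counts in each library, although Myl2, the ventricular myosin light chain of mammals, was listed at 0 in all libraries. The third animal at 3 dpi stood apart in Fbln1 and Ccdc80 and in epicardial markers, and its part in the calls and sums is given below by leaving it out.

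Levels of all 8 genes were higher on average at 14 dpi than in control or sham ventricle, and lower again at 30 and 100 dpi than at 14 dpi. The genes differed at other times: at 3 dpi Lum was within 0.12 log2 units of control and 2 of 3 animals were in the control range for Fbln1, while Dpt was highest. At 30 and 100 dpi Prelp was above every control, and at 100 dpi Lum and Mfap4 had their second-highest and third-highest group means. Control did not overlap 30 dpi for 28.4% of all tested genes, and 100 dpi for 34.4%, in either direction. At 14 dpi against control, 7 of the 8 genes rose at a limma adjusted p under 0.05 (all but Dpt), while 0.890% of all tested genes passed in either direction. Their median log2 change was 1.39, beside 0.00 for all tested genes. From 14 to 30 dpi all 8 differences were negative, with a median of -1.49. Of these, 6 were called lower (all but Prelp and Fbn1), beside 3.97% of all tested genes called in either direction. The calls against control depended on single libraries: without the first, the second and the third control in turn 1, 2 and 2 genes were called, and without each animal at 14 dpi in the same order 0, 0 and 4. Over all tested genes the 88 calls of that comparison became 24, 27 and 25, and 11, 5 and 60. For the fall to 30 dpi, 3 genes were called without any 1 of the animals at 14 dpi, and 4, 3 and 6 without each animal at 30 dpi. There the 393 calls over all tested genes became 142, 168 and 150 without each animal at 14 dpi, and 482, 224 and 184 without each at 30 dpi.

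**Figure D1:**
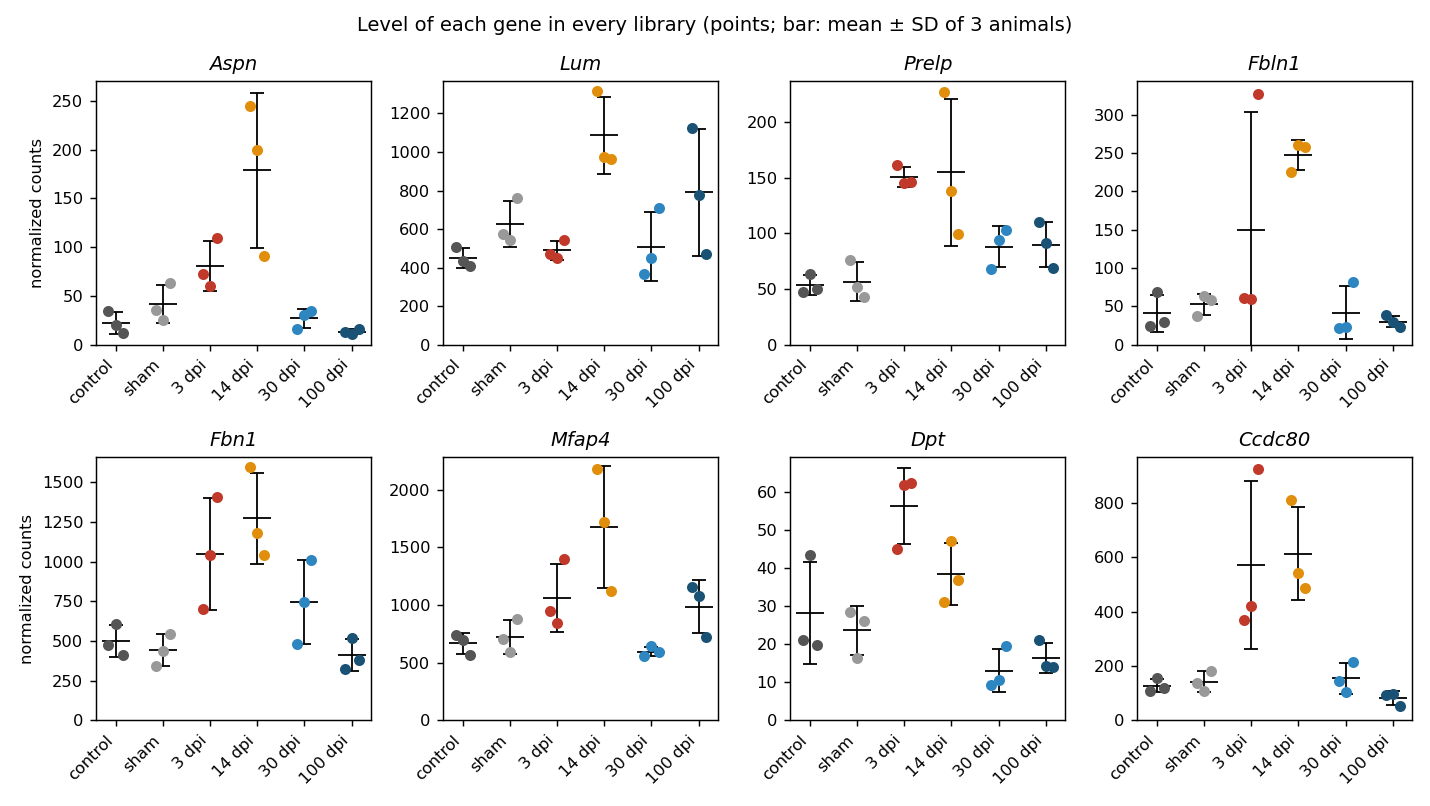
Normalized counts (y axis) of each gene in every library, grouped by control, sham and days post-injury (x axis). Points are animals, and the horizontal mark and whiskers are the mean and SD of 3 animals (cut off at 0 for Fbln1 at 3 dpi). All 3 animals at 14 dpi lie above all 3 controls for every gene except Dpt. These 2 groups do not overlap, in either direction, for 26.8% of all tested genes.

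Aspn codes for asporin, a proteoglycan that binds collagen and, in mammals, restrains TGF-beta signalling. In controls its 3 animals gave 34.2, 20.3 and 11.8 normalized counts, and sham animals gave 35.7, 25.7 and 63.1. The levels were 72.5, 60.0 and 109.3 at 3 dpi and 245.3, 200.1 and 91.1 at 14 dpi. They were 16.1, 30.3 and 34.3 at 30 dpi and 13.4, 10.7 and 15.9 at 100 dpi. Every animal at 3 or 14 dpi lay above every control, the range at 3 dpi just reached into that of the shams, and animals at 100 dpi lay below all shams and all animals at 30 dpi. The 100 dpi group did not overlap sham for 30.0% of all tested genes, and 30 dpi for 18.4%, in either direction.

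The rise of Aspn at 14 dpi against control was 2.97 ± 0.46 log2 units (SE, limma adjusted p = 0.00771), a 7.8-fold difference. Against sham the same libraries differed by 2.06 ± 0.46, which did not pass (limma adjusted p = 0.0536), and sham animals had a mean of 41.5 ± 19.4 (SD) against 22.1 ± 11.3 in controls. The difference from control at 3 dpi was 1.90 ± 0.46 and did not pass either (limma adjusted p = 0.0730). DESeq2 called both, with adjusted p = 0.00114 at 14 dpi against sham and 0.00874 at 3 dpi against control. The former was also called by limma from FPKM values and with a pseudocount of 10 (limma adjusted p = 0.0401 and 0.0304). From 14 dpi Aspn fell by 2.64 log2 units to 30 dpi (SE 0.46, limma adjusted p = 0.00602) and fell by 3.55 to 100 dpi (limma adjusted p = 0.000751). Both falls were still called without any single library. The rise against control was not called without the first or the second animal at 14 dpi (limma adjusted p = 0.0650 and 0.0561), and the difference from sham was called without the third sham animal or the third animal at 14 dpi (limma adjusted p = 0.0466 and 0.0358). The annotated span of ASPN on chromosome 4 of the gecko assembly MPM_Emac_v1.0 (chr4:105766637-105798329) lies within that of CENPP (chr4:105639937-105909962). Use of strand in counting is not given in the sources used here, and whether reads of CENPP were counted for Aspn was not tested.

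Lum codes for lumican, a keratan sulfate proteoglycan that binds fibrillar collagen. Its levels in controls were 506.3, 436.5 and 407.2 normalized counts, and in shams 573.6, 541.7 and 762.9. Animals at 3 dpi had 472.5, 451.2 and 543.8, and animals at 14 dpi had 1319, 975.2 and 964.9. At 30 dpi the values were 366.3, 452.1 and 709.0, and at 100 dpi they were 1125, 776.1 and 468.1. Lum was thus at control level at 3 dpi, highest at 14 dpi in every animal against control, sham and 3 dpi, and widely spread at 100 dpi, where the highest animal overlapped the 14 dpi range.

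Lum rose by 1.26 ± 0.27 log2 units at 14 dpi against control (limma adjusted p = 0.0448), a call that no left-out fit kept (limma adjusted p from 0.0792 to 0.202 without 1 library). Its difference at 3 dpi against control was 0.12 ± 0.27 (limma adjusted p = 0.864). Against sham Lum differed by 0.795 ± 0.27 at 14 dpi and by -0.34 ± 0.27 at 3 dpi, and neither passed (limma adjusted p = 0.237 and 0.515). From 14 to 30 dpi it fell by 1.13 log2 units (limma adjusted p = 0.0330), and that call was kept only without the third animal at 30 dpi (limma adjusted p = 0.0210), with values from 0.0703 to 0.136 without each of the other libraries. At 100 dpi Lum was 0.73 ± 0.27 above control, which did not pass (limma adjusted p = 0.0947), and without the third animal at 100 dpi it was called (1.06, limma adjusted p = 0.0195). The gene lies at chr9:49841058-49862177.

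Prelp codes for prolargin, a basic proteoglycan that links basement membrane to underlying collagen. In controls the 3 animals had 47.3, 63.8 and 49.8 normalized counts, and in shams 76.2, 51.4 and 42.4. The values at 3 dpi, 161.3, 144.8 and 146.4, were close together, and those at 14 dpi, 227.4, 137.7 and 99.2, were spread around a similar mean. They were 67.8, 93.6 and 102.9 at 30 dpi and 109.8, 91.1 and 68.9 at 100 dpi. Every injured animal at any time lay above every control, and the ranges at 30 and 100 dpi overlapped those of sham and of 14 dpi.

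Prelp rose by 1.49 ± 0.29 log2 units at 3 dpi (limma adjusted p = 0.0428) and by 1.44 ± 0.29 at 14 dpi against control (limma adjusted p = 0.0376). Against sham it rose by 1.44 ± 0.29 at 3 dpi (limma adjusted p = 0.0383) and by 1.39 ± 0.29 at 14 dpi (limma adjusted p = 0.0367). The 3 dpi call against control was lost without any single library (limma adjusted p from 0.0515 to 0.153), and the one against sham was kept only without the first sham animal (0.0422, otherwise 0.0501 to 0.127). At 14 dpi the call against control was kept only without the third animal at 14 dpi (limma adjusted p = 0.0195, otherwise 0.0707 to 0.178). The one against sham was kept without that animal (limma adjusted p = 0.0283) or without the first sham animal (0.0397), and otherwise gave 0.120 to 0.192. The later differences from control, 0.70 ± 0.29 at 30 dpi and 0.72 ± 0.29 at 100 dpi, did not pass (limma adjusted p = 0.138 and 0.120), nor did the difference of -0.74 ± 0.29 between 30 and 14 dpi (limma adjusted p = 0.174). Its position is chr5:111638890-111665167.

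Fbln1 codes for fibulin-1, a calcium-binding glycoprotein of basement membranes and elastic fibres. The controls had 24.2, 68.9 and 29.9 normalized counts and the shams 36.9, 63.4 and 57.7. At 3 dpi 2 animals, with 60.2 and 60.0, lay within the range of the controls, and the third had 327.1, the highest value of any library. All 3 animals at 14 dpi were high and close together, with 225.0, 260.0 and 258.2, above every animal of the control, sham, 30 dpi and 100 dpi groups. Levels were 21.8, 22.4 and 81.2 at 30 dpi and 38.2, 29.5 and 22.7 at 100 dpi, both overlapping the controls.

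At 14 dpi Fbln1 was 2.71 ± 0.60 above control on the log2 scale (limma adjusted p = 0.0478), a 6.6-fold difference. That call was lost without any single library (limma adjusted p from 0.0615 to 0.179). Against sham the difference was 2.25 ± 0.60 and did not pass (limma adjusted p = 0.109), and at 3 dpi against control 1.5 ± 0.60 (limma adjusted p = 0.234). Without the third animal at 3 dpi the latter was 0.69 (limma adjusted p = 0.639). The difference from sham at 14 dpi was called by DESeq2 (adjusted p = 0.0208) and by limma with only the 2 groups compared (limma adjusted p = 0.0250). Fbln1 fell by 2.81 log2 units to 30 dpi (limma adjusted p = 0.0188) and fell by 3.03 to 100 dpi (limma adjusted p = 0.0143). The fall to 30 dpi was called without the first or the third animal at 30 dpi (limma adjusted p = 0.0483 and 0.0116), and not without the second (0.0659) or without any of the 3 animals at 14 dpi (0.0564, 0.0627 and 0.0640). The fall to 100 dpi was lost without the second or the third animal at 14 dpi (limma adjusted p = 0.0519 and 0.0568). The gene lies at chr16:4913985-5020575.

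Fbn1 codes for fibrillin-1, the main subunit of microfibrils. Controls had 475.1, 608.7 and 410.8 normalized counts, and shams 345.1, 433.7 and 545.6. Animals at 3 dpi had 701.1, 1041 and 1406, and animals at 14 dpi 1596, 1179 and 1041. The values at 30 dpi were 478.8, 743.3 and 1013, and those at 100 dpi 324.8, 520.7 and 380.8. The 3 and 14 dpi groups did not overlap control or sham, the 30 dpi group spanned the distance from control level nearly to 14 dpi level, and the 100 dpi group overlapped control and sham, with its lowest animal below all of both.

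The rise of Fbn1 at 14 dpi was 1.35 ± 0.30 log2 units against control (limma adjusted p = 0.0448) and 1.53 ± 0.30 against sham (limma adjusted p = 0.0236). No left-out fit kept the call against control (limma adjusted p from 0.0637 to 0.207). The one against sham was kept without the third sham animal (limma adjusted p = 0.0366) or the third animal at 14 dpi (0.0382), and otherwise gave 0.0838 to 0.135. At 3 dpi the differences, 1.04 ± 0.30 from control and 1.22 ± 0.30 from sham, did not pass (limma adjusted p = 0.117 and 0.0584). DESeq2 called both (adjusted p = 0.0172 and 0.00317). With a trend with transcript length removed, the difference from sham was called (limma adjusted p = 0.0426). Between 14 and 30 dpi the difference was -0.81 ± 0.30 (limma adjusted p = 0.138). By 100 dpi Fbn1 had fallen by 1.64 log2 units from 14 dpi (limma adjusted p = 0.00810), a call kept without every single library in turn. It lies at chr18:27775235-27981191.

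Mfap4 codes for a fibrinogen-related protein that binds microfibrils and elastin. Levels were 740.9, 693.8 and 565.6 normalized counts in controls and 700.9, 589.7 and 878.3 in shams. They were 944.0, 847.9 and 1397 at 3 dpi and 2180, 1718 and 1125 at 14 dpi. At 30 dpi the 3 animals, with 559.2, 641.9 and 588.9, were close together within the control range apart from the lowest, just under it. At 100 dpi they had 1156, 1077 and 721.6, of which 2 lay above every control and every sham.

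Mfap4 rose by 1.28 ± 0.24 log2 units at 14 dpi against control (limma adjusted p = 0.0249) and by 1.18 ± 0.24 against sham (limma adjusted p = 0.0336). The first call was kept only without the third animal at 14 dpi (limma adjusted p = 0.0115, otherwise 0.0574 to 0.159). The second was kept without that animal (limma adjusted p = 0.0186) or the third sham animal (0.0450), and otherwise gave 0.116 to 0.181. Its fall by 1.44 log2 units to 30 dpi (limma adjusted p = 0.00549) was called without every single library in turn. The differences at 100 dpi, 0.54 ± 0.24 from control and -0.74 ± 0.24 from 14 dpi, did not pass (limma adjusted p = 0.161 and 0.109). DESeq2 called the difference from 14 dpi (adjusted p = 0.0390). The gene lies at chr12:57239637-57251381.

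Dpt codes for dermatopontin, a small tyrosine-rich protein that binds the proteoglycan decorin and promotes collagen fibril assembly. The controls had 21.1, 43.6 and 19.9 normalized counts, and the shams 28.6, 16.3 and 26.2. At 3 dpi the values were 44.9, 61.8 and 62.5, and at 14 dpi 31.1, 47.2 and 36.9. They were 9.19, 10.5 and 19.4 at 30 dpi and 21.0, 14.3 and 14.0 at 100 dpi. Dpt was thus highest at 3 dpi, where it did not overlap control or sham, overlapped control again at 14 dpi, and at 30 dpi lay below every control. Control and 30 dpi did not overlap, in either direction, for 28.4% of all tested genes.

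None of the differences of Dpt from control or sham passed in the limma fit of normalized counts. DESeq2 called Dpt at 3 dpi against sham (1.27, adjusted p = 0.0368), and limma on FPKM values called it at 30 dpi against control (-1.09, adjusted p = 0.0426). In the fit of normalized counts the largest were 1.24 ± 0.38 at 3 dpi against sham (limma adjusted p = 0.102), 1.05 ± 0.38 at 3 dpi against control (limma adjusted p = 0.192) and -1.03 ± 0.38 at 30 dpi against control (limma adjusted p = 0.0901). Dpt fell by 1.54 log2 units from 14 to 30 dpi (limma adjusted p = 0.0359), a call kept only without the third animal at 30 dpi (0.0317, otherwise 0.0686 to 0.122). It lies at chr3:143489415-143510991.

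Ccdc80 codes for a secreted protein of the matrix that, in mammals, binds glycosaminoglycans. It had 108.7, 156.0 and 118.5 normalized counts in controls and 136.9, 106.3 and 182.2 in shams. At 3 dpi it had 368.4, 422.6 and 927.5, and at 14 dpi 811.3, 543.0 and 488.8. At 30 dpi it had 145.8, 104.1 and 216.1, and at 100 dpi 94.6, 98.2 and 51.6. The 3 and 14 dpi groups lay wholly above all other groups and overlapped each other, and the 100 dpi group lay wholly below control, sham and 30 dpi. Of all tested genes, the 100 dpi group did not overlap control for 34.4%, sham for 30.0% and 30 dpi for 18.4%, in either direction.

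Ccdc80 rose by 2.05 ± 0.36 log2 units at 3 dpi against control (limma adjusted p = 0.0339) and by 1.92 ± 0.36 against sham (limma adjusted p = 0.0383). At 14 dpi it was 2.24 ± 0.36 above control (limma adjusted p = 0.00926) and 2.11 ± 0.36 above sham (limma adjusted p = 0.0137). Both 3 dpi calls were kept only without the second animal at 3 dpi (limma adjusted p = 0.0384 and 0.0353), and otherwise gave 0.0672 to 0.153 against control and 0.0522 to 0.127 against sham. The 14 dpi call against control was lost without the first control (limma adjusted p = 0.0508) or without the first or second animal at 14 dpi (0.0702 and 0.0535). The 14 dpi call against sham was lost without the second sham (limma adjusted p = 0.0854) or without the first or second animal at 14 dpi (0.0803 and 0.0563). From 14 dpi Ccdc80 fell by 2.00 log2 units to 30 dpi (limma adjusted p = 0.00724) and fell by 2.92 to 100 dpi (limma adjusted p = 0.000641), and both falls were called without every single library in turn. Its difference from control at 100 dpi, -0.68 ± 0.36, did not pass (limma adjusted p = 0.238). The gene lies at chr3:144038115-144065985, on the same chromosome as Dpt.

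Levels can be compared between genes only after scaling to transcript length, as in the deposited FPKM values. On that scale Mfap4 was the highest of the 8 genes and Lum the second in every group, with means of 26.3 ± 3.69 and 14.2 ± 1.71 FPKM (SD, n = 3) in controls. Fbn1, at 3.16 ± 0.64 FPKM, and Dpt, at 3.97 ± 1.85, came next in controls and overlapped each other. Ccdc80, Prelp, Aspn and Fbln1 followed with control means of 1.55, 1.21, 0.85 and 0.67 FPKM, and neighbours in that order overlapped. At 14 dpi the third place was held by Fbn1 at 8.05 ± 1.81 FPKM, followed by Ccdc80 at 7.49 ± 2.14 and Aspn at 6.94 ± 3.11, with overlapping ranges.

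The FPKM of the 8 genes summed to between 44.1 and 56.0 in controls and to between 49.5 and 71.7 in shams. The sum was 72.3 to 111.7 at 3 dpi and 102.5 to 171.3 at 14 dpi. At 30 dpi it was 42.5 to 61.6 and at 100 dpi 52.9 to 93.4. The sums at 3 and 14 dpi thus lay above every control and sham, and those at 30 dpi overlapped both. Lum and Mfap4 together held 72.7% to 81.8% of the sum in controls, 63.4% to 70.1% at 3 dpi and 85.7% to 89.5% at 100 dpi. The ratio of Lum to Aspn in FPKM ran from 12.1 to 28.8 in controls, 4.07 to 8.82 at 14 dpi and 25.2 to 70.1 at 100 dpi. That of Lum to Ccdc80 ran from 7.13 to 12.1 in controls, 1.44 to 3.44 at 3 dpi and 22.2 to 32.2 at 100 dpi, with no overlap between these groups. Without the third animal at 3 dpi, which had the sum of 111.7, the sum at 3 dpi was 72.3 to 73.8, the share of Lum and Mfap4 63.7% to 70.1% and the ratio of Lum to Ccdc80 2.60 to 3.44. Differences between the genes in their changes were not tested.

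Sham and control ventricle were not separated by these genes. None of the 8 was called in that comparison (0% of all tested genes were called by limma or edgeR, and 479 had an unadjusted p under 0.05), none had an unadjusted p under 0.05, and neither edgeR nor DESeq2 called any. DESeq2 called 29 of all tested genes. The Lum levels of the shams lay wholly above those of the controls, by 0.46 ± 0.27 log2 units (limma adjusted p = 0.930). Lum was the only 1 of the 8 genes for which sham and control did not overlap. The same held, in either direction, for 11.8% of all tested genes.

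At 3 dpi, 2 of the 8 genes were called against control (Prelp and Ccdc80) and the same 2 against sham, beside 0.334% and 0.971% of all tested genes. Medians over the 8 genes were 1.27 against control and 1.12 against sham on the log2 scale, and 7 of the 8 had an unadjusted p under 0.05 against control, as did 1565 of the 9887 tested genes (15.8%). All 8 differences from control were positive, that of Lum at 0.12. DESeq2 called 4 of the 8 in each comparison, beside 415 of all tested genes against control and 617 against sham. edgeR called 1 of the 8 against control, beside 24 of all tested genes. Without the third animal at 3 dpi 0 of the 8 were called in either comparison, as without most other single libraries. Leaving that animal out also took the 33 and 96 calls over all tested genes to 1 and 4.

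At 14 dpi against sham, 4 of the 8 genes were called (Prelp, Fbn1, Mfap4 and Ccdc80), beside 0.738% of all tested genes, and all 8 genes showed groups that did not overlap, as did 23.6% of all tested genes. The comparisons with control and with sham share the injured libraries. Without each sham in turn 2, 0 and 4 genes were called, and without each animal at 14 dpi 0, 0 and 5, while the 73 calls over all tested genes became 38, 13 and 50, and 17, 11 and 53. Between 3 and 14 dpi none of the 8 was called by limma or edgeR, as was 0% of all tested genes (1205 of them had an unadjusted p under 0.05, and DESeq2 called 95), while 3 of the 8 had an unadjusted p under 0.05. DESeq2 called 1, Lum, which was the gene with groups that did not overlap (1.14 ± 0.27, limma adjusted p = 0.195). These 2 groups did not overlap, in either direction, for 18.5% of all tested genes.

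At 30 dpi none of the 8 genes was called against control or sham, although 11.3% and 7.25% of all tested genes were. At 100 dpi none was called either, beside 12.0% and 7.14%. Unadjusted p-values under 0.05 numbered 2 of 8 at 30 dpi and 3 of 8 at 100 dpi against control, and 3 of 8 at each time against sham. Over all tested genes these shares were 27.1% and 27.8% against control, and 22.4% and 21.6% against sham. Groups did not overlap for 2 of the 8 genes against control at each time, beside 28.4% and 34.4% of all tested genes. Against sham they did not overlap for 0 and 2 of the 8, beside 24.8% and 30.0%. The medians over the 8 genes were 0.18 at 30 dpi and -0.30 at 100 dpi against control, and -0.30 at both times against sham. edgeR called none of the 8 in these comparisons. Of all 9887 tested genes it called 1068 at 30 dpi and 1215 at 100 dpi against control, and 697 and 741 against sham. DESeq2 called Lum at 100 dpi against control (beside 1775 of all tested genes) and Aspn at 100 dpi against sham (beside 1154).

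The only calls kept whichever single library of the 2 groups was left out were in the steps away from 14 dpi. No call against control or sham was kept in all such fits. From 14 to 30 dpi, 6 of the 8 were called lower, and Aspn, Mfap4 and Ccdc80 were called in each fit with 1 library left out. From 14 to 100 dpi all 8 differences were negative, with a median of -1.41. There 4 of the 8 were called lower (Aspn, Fbln1, Fbn1 and Ccdc80), beside 3.57% of all tested genes. Of these 4, Aspn, Fbn1 and Ccdc80 were called lower in each left-out fit. Over all tested genes the 353 calls of that step became 130, 127 and 110 without each animal at 14 dpi. They became 137, 157 and 194 without each animal at 100 dpi. Between 30 and 100 dpi none of the 8 was called by limma, edgeR or DESeq2. Of all 9887 tested genes limma called 0.769%, edgeR 86 genes and DESeq2 383. In that step 4 of the 8 had an unadjusted p under 0.05, as did 16.1% of all tested genes.

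**Figure D2:**
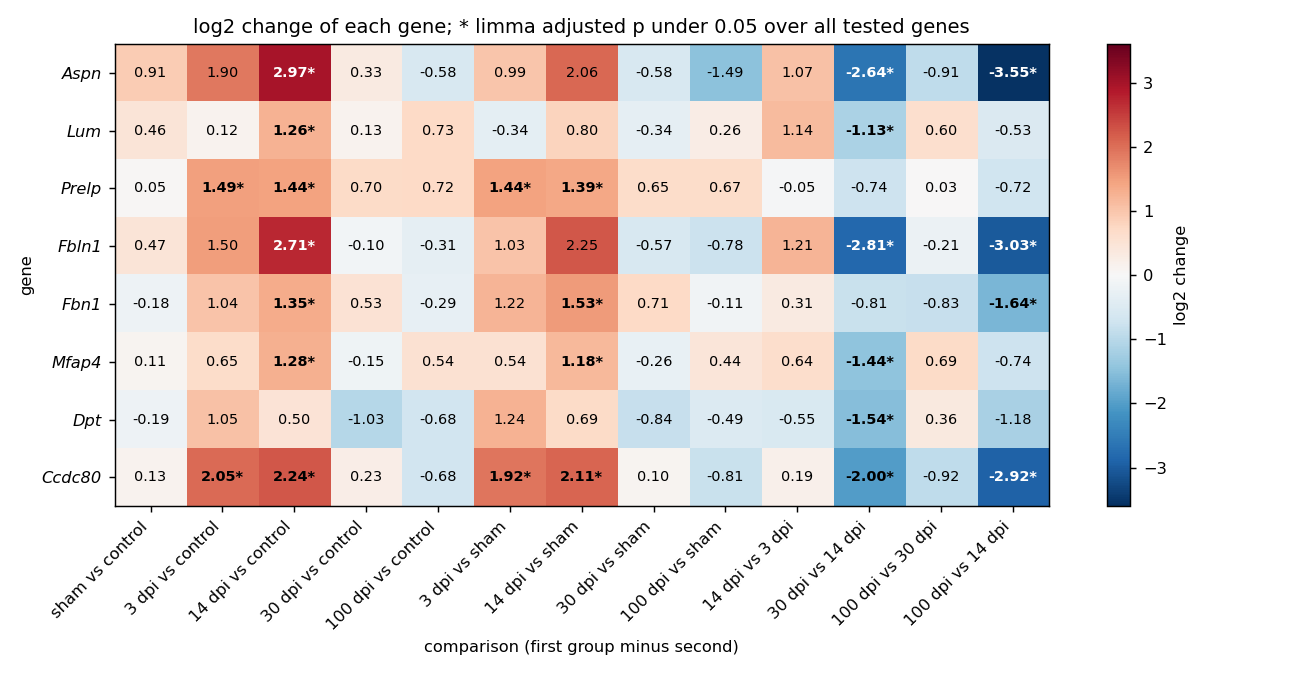
Change on the log2 scale (colour and printed value) of each gene (y axis) in the 13 comparisons (x axis), first group minus second. Asterisks mark limma adjusted p-values under 0.05 over all 9887 tested genes; they gather at 14 dpi against control (7 of 8) and 30 against 14 dpi (6 of 8).

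The 8 genes did not move as a single unit across the 18 libraries. Pearson correlations of log2 levels between pairs of them ran from 0.20 (Lum with Dpt) to 0.89 (Fbn1 with Ccdc80), a description over libraries that share their group. Of all tested genes, Col1a2, a chain of type I collagen, had the level most like the mean of the 8 (r = 0.939 over 18 libraries), followed by the basement membrane collagen chain Col4a5 (0.938), the fibril-associated collagen Col12a1 (0.934) and the follistatin-like glycoprotein Fstl1 (0.924). Taken singly, Fbn1 was most like Eln, the gene of elastin (r = 0.946), and Ccdc80 most like Fstl1 (0.934). Lum was most like Ctsk, a collagen-degrading cathepsin (r = 0.829), and Prelp most like Ltbp1, a binding protein of latent TGF-beta (0.839). Dpt was most like the signalling ligand Wnt5a (r = 0.895).

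Other genes of proteoglycans, microfibrils and glycosaminoglycan synthesis were read from a list of 124 symbols, of which 102 had a row and 84 passed the filter. At 14 dpi against control 0 of the 84 were called by limma or edgeR, with 26 at an unadjusted p under 0.05 (1640 of all 9887 tested genes, 16.6%). DESeq2 called 9 of the 84 (406 of all tested genes), and 63 of 84 differences were positive with a median of 0.28. At 3 dpi against control 0 were called by limma or edgeR, with 20 at an unadjusted p under 0.05 (15.8% of all tested genes). DESeq2 called 6 of the 84 there (415 of all tested genes), and the median was 0.24. From 14 to 30 dpi 1 was called higher and 6 lower (8.33% of the 84, beside 3.97% of all tested genes). From 14 to 100 dpi 1 was called higher and 8 lower (10.7%, beside 3.57%). The gene called higher in both steps was Tgfbr3, a membrane proteoglycan that presents TGF-beta. It rose by 0.93 ± 0.16 and 1.12 ± 0.16 log2 units (limma adjusted p = 0.00602 and 0.00174).

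Of the small leucine-rich proteoglycans on that list, 15 were listed, 11 had a row and 8 were tested. Dcn, the gene of decorin, had 3173 ± 411 normalized counts in controls and 4191 ± 446 at 14 dpi, a log2 difference of 0.40 ± 0.15 that did not pass (limma adjusted p = 0.197). Dcn fell by 0.69 log2 units from 14 to 30 dpi (limma adjusted p = 0.0202). Ogn, the gene of osteoglycin, had 267 ± 128 normalized counts in controls and 515 ± 99.4 at 14 dpi (1.08 ± 0.30, limma adjusted p = 0.102), and fell by 1.33 to 30 dpi (limma adjusted p = 0.0232). Ecm2, an Aspn relative, had 48.6 ± 7.22 and 139 ± 18.0 (1.5 ± 0.36, limma adjusted p = 0.0611), and fell by 2.05 to 30 dpi (limma adjusted p = 0.00602). Bgn, the gene of biglycan, had 325 ± 144 in controls and 625 ± 284 at 14 dpi (0.96 ± 0.51, limma adjusted p = 0.359).

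Several of these genes are neighbours in the gecko assembly MPM_Emac_v1.0, where all 8 symbols had an entry. ECM2 (chr4:105721280-105750644), ASPN and OGN (chr4:105871978-105891621) lie in that order on chromosome 4, all within the annotated span of CENPP. OMD, which had no row, lies between ASPN and OGN. Whether reads of CENPP were counted for ECM2, ASPN or OGN was not tested. All 3 had higher normalized counts in each animal at 14 dpi than in each control. For 26.8% of all tested genes these 2 groups did not overlap, in either direction. DCN (chr9:49774448-49817898) lies beside LUM, and KERA, the keratocan gene, lies on the other side of LUM, beyond LOC129336035. KERA had means of 0 normalized counts in controls and 0.40 at 14 dpi, under the limit that a count of 0 allows. FMOD (chr5:111417499-111438087), the fibromodulin gene beside PRELP and Fmod in the table, had 39.4 ± 37.6 in controls and 14.4 ± 11.3 at 14 dpi, a difference of -1.15 ± 1.47 (limma adjusted p = 0.743), while PRELP rose.

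Among relatives of the microfibril genes, Eln had 2998 ± 279 normalized counts in controls and 6464 ± 1387 at 14 dpi, without overlap (1.09 ± 0.27, limma adjusted p = 0.0644), and fell by 1.40 log2 units from 14 to 100 dpi (limma adjusted p = 0.0106). Mfap2, the gene of the microfibril glycoprotein MAGP-1, had 12.0 ± 8.12 and 75.8 ± 29.9 in the same groups (2.72 ± 0.64, limma adjusted p = 0.0611). Fbln5, a fibulin needed in mice for elastic fibre assembly, had 32.8 ± 16.9 in controls, 189 ± 154 at 3 dpi and 129 ± 35.5 at 14 dpi. It fell by 2.09 log2 units from 14 to 100 dpi (limma adjusted p = 0.0422). Fbn2, the gene of fibrillin-2, had 349 ± 147 in controls and 631 ± 228 at 14 dpi (0.88 ± 0.39, limma adjusted p = 0.271), and at 100 dpi 668 ± 100, wholly above the controls (1.01 ± 0.39, limma adjusted p = 0.102), where Fbn1 differed from them by -0.29 ± 0.30. Control and 100 dpi did not overlap, in either direction, for 34.4% of all tested genes. Of 33 tested genes of glycosaminoglycan chain synthesis, 0 were called at 14 dpi against control by limma, close to the 0.890% of all tested genes, with a median of 0.11.

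**Figure D3:**
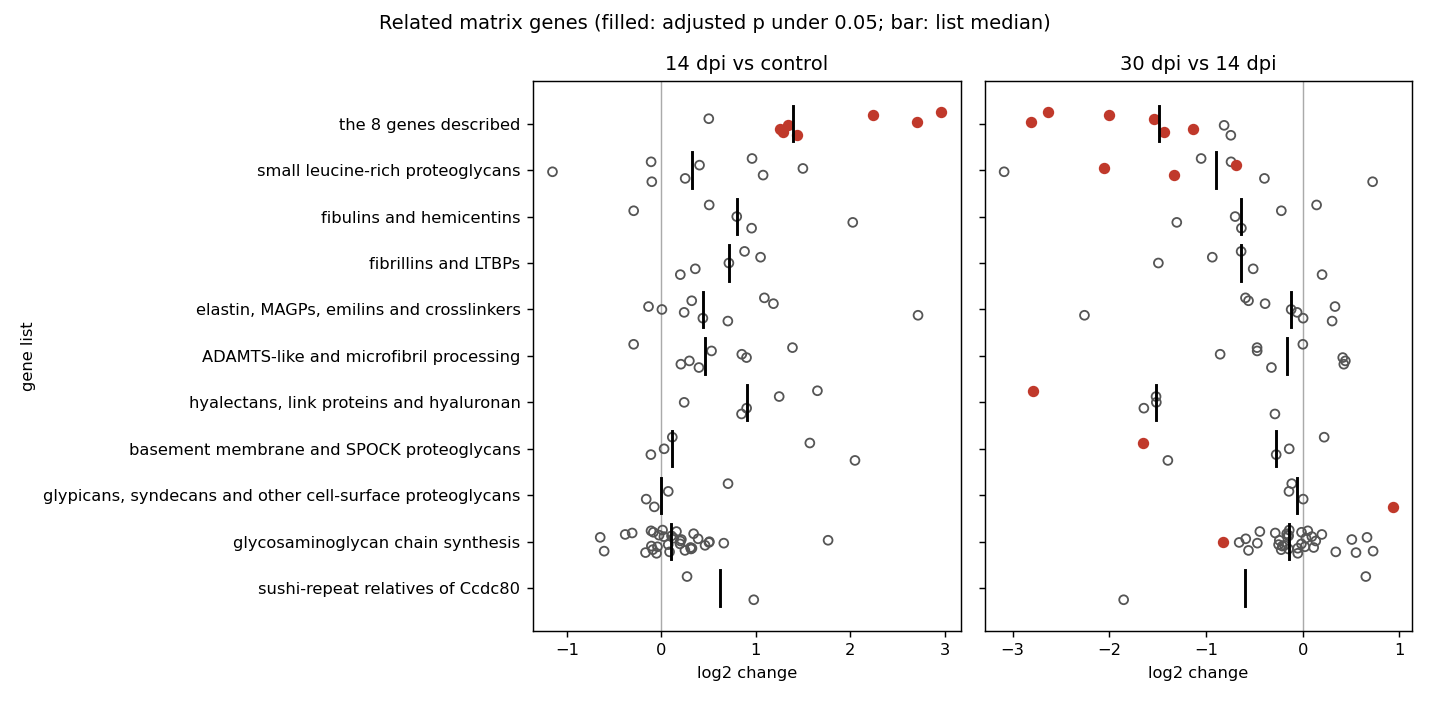
Change on the log2 scale (x axis) at 14 dpi against control (left) and 30 against 14 dpi (right) for the 8 genes and for lists of related matrix genes (y axis). Circles are genes, filled where the limma adjusted p is under 0.05, and vertical bars are list medians; of the 84 related genes 0 are filled on the left and 7 on the right.

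Markers of other cell types moved with the 8 genes in part. Fibroblast markers, of which 8 of 10 had a row, none at 0 throughout, summed to 24150 to 30080 normalized counts in controls and 24420 to 36600 in shams. Their sum was 40950 to 55680 at 3 dpi and 62020 to 66480 at 14 dpi, above every control and sham. It was 18190 to 59670 at 30 dpi and 17080 to 30340 at 100 dpi. At 14 dpi most of the sum came from Col1a1, Col1a2 and Col3a1. Of 7 tested markers 2 were called higher at 14 dpi against control, beside 0.890% of all tested genes. At 30 dpi against control 1 was called lower, beside 11.3%. From 14 to 30 dpi 3 were called lower, beside 3.97%. In that step 1 of 7 differences was positive and the median was -0.94. Pdgfra, a receptor that marks fibroblasts, had 478 ± 104 in controls, 737 ± 41.2 at 14 dpi (0.64 ± 0.26, limma adjusted p = 0.240) and 720 ± 221 at 30 dpi. The part of fibroblast number in these results was not tested, and in tissue pieces fewer cells of a type and less RNA per cell cannot be told apart.

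Epicardial and mesothelial markers, 6 of 10 with a row, summed to 611.7 to 896.3 in controls and 528.4 to 866.6 in shams. Their sum was 1126 to 4783 at 3 dpi and 805.3 to 2368 at 14 dpi. The keratin genes Krt18 and Krt8 reached 2392 and 1308 in a library, and no other marker of that list passed 754.7. The highest sum was that of the third animal at 3 dpi, which also had the highest Fbln1 and Ccdc80. The first animal at 14 dpi had the sum of 805.3, within the control range, together with the highest Aspn, Lum, Prelp, Fbn1 and Mfap4 of all libraries. At 30 dpi the sum was 519.3 to 778.7 and at 100 dpi 307.6 to 564.5. Of 5 tested markers 2 were called lower from 14 to 30 dpi, beside 3.97% of all tested genes, and the median was -1.95. Cartilage and tendon markers, whose tissues also use Aspn, Lum and Prelp, had a row for 11 of 11 symbols and summed to at most 812.8 in any library, that of the second animal at 3 dpi. Of these, the tendon gene Tnmd was listed at 0 throughout, while the tendon regulator Scx reached 52.5, the cartilage regulator Sox9 109.4 and the cartilage matrix gene Matn1 222.3 normalized counts. Macrophage markers summed to 950.0 to 1780 in controls, 1422 to 2896 at 3 dpi and 940.8 to 1682 at 14 dpi. Cardiomyocyte markers summed to 719300 to 960800 in controls, 736300 to 836900 in shams, 796400 to 941100 at 14 dpi and 880500 to 1133000 at 30 dpi, so that sham and 30 dpi did not overlap.

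Other lists moved as well, and some did so at several times. Markers of erythrocytes and thrombocytes, 5 of 8 with a row, summed to 5629 to 22490 at 14 dpi and 1617 to 3600 at 30 dpi. In that step 1 of 5 was called lower, beside 3.97% of all tested genes, and the median was -1.57. Endothelial markers, 8 of 11 with a row, summed to 9949 to 14580 at 3 dpi, 10200 to 11760 at 30 dpi and 13250 to 16670 at 100 dpi. These 3 ranges lay above every control (7298 to 9655) and every sham (8337 to 9827), while 14 dpi (7891 to 10290) overlapped both. Against control limma called 0 of 8 endothelial markers at 3 dpi, 1 at 14 dpi, 1 at 30 dpi and 4 at 100 dpi. Beside these, 0.334%, 0.890%, 11.3% and 12.0% of all tested genes were called. Schwann cell markers, 7 of 8 with a row, summed to 7480 to 8752 at 3 dpi and 6968 to 8437 at 100 dpi. Both ranges lay below every control (9181 to 18030) and every sham (11330 to 15800). Of that list Ncam1 reached 16550 in a library, and no other marker passed 2119. Differences from control were positive for 4 of 6 tested Schwann cell markers at 3 dpi and for 1 of 6 at 100 dpi. Smooth muscle and pericyte markers, 8 of 10 with a row, summed to 97420 to 113900 in controls, 70430 to 75350 in shams and 73410 to 117800 at 3 dpi. Their sums were 68570 to 86980 at 14 dpi, 56410 to 85550 at 30 dpi and 51490 to 75120 at 100 dpi, so that 3 dpi alone overlapped control. Acta2 reached 82090 and Cnn1 54790 in a library, and no other marker of that list passed 2923. The median log2 difference of the 8 markers from control was 0.63 at 3 dpi (7 positive) and 0.12 at 14 dpi (5 positive). In shams it was -0.08 (4 positive), at 30 dpi -0.02 (4) and at 100 dpi -0.22 (3). The part of these cell types in the results was not tested.

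**Figure D4:**
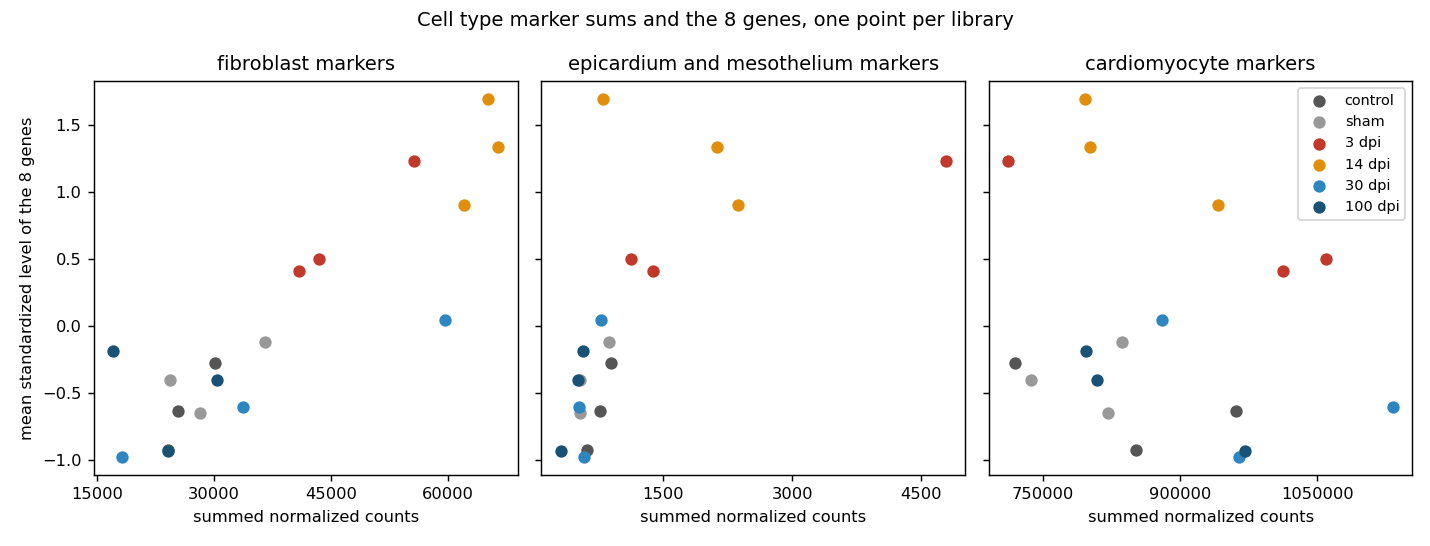
Mean standardized log2 level of the 8 genes (y axis) against the summed normalized counts of fibroblast, epicardial and cardiomyocyte markers (x axes), with 1 point per library coloured by group. The 3 libraries at 14 dpi have the highest fibroblast sums, from 62020 to 66480, and the third animal at 30 dpi has a sum of 59670 with a level of 0.05 for the 8 genes.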

How the data were processed

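Polyadenylated RNA from 18 ventricle portions, 1 animal each, was sequenced. Per the submitters' processing notes, HISAT2 2.2.0, StringTie 2.2.1 and Salmon 1.8.0 were used. Per the series text, reads were aligned to the gecko genome and assembled transcripts were named from mouse annotation, so rows carry mouse identifiers. The authors deposited normalized counts, a signal that was scaled per library, and FPKM values. Of the normalized values, 100% were whole multiples of a library's step within 0.1 read, which gave the reads used for edgeR 4.0.16 and DESeq2 1.42.0. The step of the first control, 1.01, is close to 1, so its low values lie near whole numbers in any case and the check says less there. Depth was 12646411 to 34898541 reads, and 0 columns were left unmapped.

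The 9887 of 12376 rows whose mean reached 10 normalized counts were fitted as log2(normalized count + 1) with limma 3.58.1 (trend, R 4.3.3), all 6 groups together, 12 residual degrees of freedom, and Benjamini-Hochberg adjustment over all tested genes in each of 13 comparisons. Values in the text after ± are SD for levels and SE for log2 changes. A log2 change on this scale understates that of low genes. "Called" means an adjusted p under 0.05. The test was checked on simulated data. The 8 genes and all gene lists were chosen with earlier results of these data known. Genes named outside the 8 were members of those lists, or the genes most correlated with the 8. Alternatives were other pseudocounts, no filter, TMM factors, the FPKM table, fits of only the groups compared, a replicate block, edgeR, DESeq2, removal of a trend with transcript length, and single libraries left out. Libraries of 1 group never agreed within sampling noise (chi-square per degree of freedom at least 23.7). Gene positions come from the RefSeq annotation of MPM_Emac_v1.0, matched by symbol.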

Additional observations from a re-analysis of the deposited data

Results flagged for a closer look

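Controls and shams have no day given, so a difference between 2 injured groups cannot be divided between injury and time. Changes between days after injury were picked out where the direct comparison of 2 injured groups passed. On the log2 scale, 30 minus 14 dpi, these were -2.64 for Aspn, -1.13 for Lum, -2.81 for Fbln1, -1.44 for Mfap4, -1.54 for Dpt and -2.00 for Ccdc80 (limma adjusted p from 0.00549 to 0.0359). For 100 minus 14 dpi they were -3.55 for Aspn, -3.03 for Fbln1, -1.64 for Fbn1 and -2.92 for Ccdc80 (limma adjusted p from 0.000641 to 0.0143). The 14 dpi libraries are shared by both sets. By limma none of the 8 genes passed between 3 and 14 dpi or between 30 and 100 dpi, and DESeq2 called Lum between 3 and 14 dpi (1.15, adjusted p = 0.0182).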

How the results depend on the processing

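Of 25 calls over the 8 genes and 13 comparisons, none changed direction under any alternative run. All 25 were kept with a pseudocount of 0.1, with TMM factors and by DESeq2, which added 11, and with a pseudocount of 10, which added 1. Without a filter 3 were lost, by edgeR 2, from FPKM values 3 (with 3 gained), with the length trend removed 5 (1 gained) and with only the 2 groups compared 11 (1 gained). At 3 dpi against control the 2 called genes became 1 in the FPKM table, 1 by edgeR, 4 by DESeq2 and 0 with only the 2 groups, and against sham 4 by DESeq2 and 0 with only the 2 groups. Over all tested genes these counts were 17, 24, 415 and 0 against control, and 617 and 11 against sham. At 14 dpi against control the 7 became 4 both with only the 2 groups and with the length trend removed. Where none was called, 1 was called in the FPKM table at 30 and at 100 dpi against control (Dpt and Lum). That fit called 1107 and 1330 of 9786 tested genes in these comparisons. DESeq2 called 1 at 100 dpi against control (Lum), at 100 dpi against sham (Aspn) and between 14 and 3 dpi (Lum). It called 1775, 1154 and 95 of all tested genes there.

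With single libraries left out, 0 to 1 of the 8 genes were called at 3 dpi against control and against sham. Over all tested genes the counts there were 1 to 87 and 2 to 122. At 14 dpi 0 to 4 of the 8 were called against control and 0 to 5 against sham, beside 5 to 60 and 11 to 53. The count was 0 to 1 at 100 dpi against control and at 30 dpi against sham, beside 588 to 806 and 379 to 906. From 14 to 30 dpi it was 3 to 6, beside 142 to 482, and from 14 to 100 dpi 3 to 4, beside 110 to 194. The numbers of the animals are not stated to pair the libraries. Of 45 same-numbered pairs, 5 had residual correlations over 0.1 (range -0.18 to 0.23). A differently numbered pair, the first sham with the second animal at 3 dpi, had 0.26. With a replicate block 6 calls were lost, and the 2 genes at 3 dpi against control became 0. The causes of these changes were not tested. Over all tested genes, the 33 (22 higher) called at 3 dpi against control became 131 (35 higher) with the length trend removed, 415 by DESeq2 and 0 with only the 2 groups, and the 88 (71 higher) at 14 dpi became 79 (47 higher), 406 and 83. Removing that trend moved the genes called higher from 66 of 96 to 85 of 201 at 3 dpi against sham, from 69 of 73 to 57 of 80 at 14 dpi against sham, from 747 of 1187 to 426 of 1080 at 100 dpi against control and from 548 of 706 to 299 of 627 at 100 dpi against sham. Depth limits Dpt and Aspn most, with as few as 8 and 12 reads in a library.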

Other observations

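Of 5 tested genes of hyaluronan and its binding proteoglycans, limma called 1 lower from 14 to 30 dpi and 1 from 14 to 100 dpi. Of 9 tested genes of elastin, its microfibril partners and crosslinkers it called 0 and 2 lower. Over all tested genes 3.97% and 3.57% were called in these steps. Cd44, a hyaluronan receptor, fell from 230 ± 83.0 normalized counts (SD, n = 3) at 14 dpi to 32.8 ± 13.6 at 30 dpi (limma adjusted p = 0.0330). Has2, a hyaluronan synthase, fell from 43.5 ± 18.2 at 14 dpi to 5.4 ± 3.97 at 100 dpi (limma adjusted p = 0.0441). Lox, which crosslinks collagen and elastin, fell from 391 ± 65.0 to 143 ± 51.7 over the same step (limma adjusted p = 0.0364). Col18a1, a basement membrane collagen that carries heparan sulfate, fell from 586 ± 97.5 at 14 dpi to 207 ± 121 at 30 dpi and 115 ± 52.9 at 100 dpi (limma adjusted p = 0.0228 and 0.00268). Srpx2, a secreted sushi-repeat protein, fell from 32.7 ± 12.0 to 4.19 ± 1.04 between 14 and 100 dpi (limma adjusted p = 0.0197).

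Against control, 2 of the 84 related genes were called at 30 dpi (2.38%) and 4 at 100 dpi (4.76%), beside 11.3% and 12.0% of all tested genes. Tgfbr3 rose from 3810 ± 545 normalized counts in controls to 6980 ± 1615 at 30 dpi and 7906 ± 1326 at 100 dpi (limma adjusted p = 0.00333 and 0.000820). Chpf2, an enzyme of chondroitin chain polymerization, fell from 995 ± 84.6 to 660 ± 64.4 and 660 ± 98.5 (limma adjusted p = 0.0135 and 0.0131). Ust, a sulfotransferase of these chains, rose from 391.7 ± 56.2 to 560 ± 86.5 at 100 dpi (limma adjusted p = 0.0241). Mmrn1, the gene of multimerin-1, rose from 124 ± 31.3 to 313 ± 94.3 at 100 dpi (limma adjusted p = 0.0182).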
